A study of Homo sapiens with 2 samples.

Results

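The 4 human tropomyosin genes, TPM1, TPM2, TPM3 and TPM4, are described here in HEK-293, an established line from human embryonic kidney, after transfection with either a mimic of miR-204 or scramble oligos as control. Their probes were found by gene name among the non-control spots of the arrays. This gave 23 of 41000 probes, for 4 of the 30484 gene names, with 6 probes for TPM1, 2 for TPM2, 11 for TPM3 and 4 for TPM4. The family was selected on earlier values of these same arrays, in which TPM4 fell, so that every ratio of miR-204 over control below is a description and none is a test. According to the labels, the cells were transfected at 75 nM for 48 h and total RNA was taken. Both RNAs were hybridized together to a 2-colour array, with the RNA of the mimic-treated cells (mimic RNA) in Cy5 on the first array and in Cy3 on the dye-swap array, here the swapped array. No second culture is named, so the 2 arrays were counted as 1 replicate, and the difference between them measures the spread of these arrays, which may be technical. As RNA came from whole cultures, a change in every cell and a change in some of the cells cannot be told apart.

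Tropomyosins are coiled-coil dimers that lie end to end along actin filaments. They govern which other proteins reach the filament, among them myosin motors, troponin, caldesmon and cofilin. Each gene makes several isoforms through alternative start sites and alternative exons. In striated muscle, tropomyosin places the troponin complex on the thin filament, whereas in other cells different isoforms mark stress fibres and other sets of filaments. TPM1 and TPM2 encode alpha and beta tropomyosin, TPM3 encodes the slow muscle form and short cytoskeletal forms, and TPM4 is mainly expressed outside muscle. The RefSeq table of GRCh38.p14 listed 58 transcripts for TPM1, 6 for TPM2, 17 for TPM3 and 5 for TPM4, and its start-site table held 3 start sites for TPM4.

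A miRNA pairs with mRNA mainly through its seed, bases 2 to 8 counted from the 5′ end, and lowers the mRNA or its translation. The mature sequences of miR-204 are shown because they are what the mimic can carry, with the seed in capitals. The labels do not name the arm. In the RefSeq table, 2 mature miRNAs had the seed of the 5p arm, miR-204-5p and miR-211-5p. The sequence of miR-211-5p, from another gene, is shown for this shared seed alone.
hsa-miR-204-5p: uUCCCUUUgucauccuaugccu
hsa-miR-211-5p: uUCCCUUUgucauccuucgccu
hsa-miR-204-3p: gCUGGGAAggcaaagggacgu
The probes on the arrays read mRNA, so the level of the mimic in the cells was not measured here. Transcript sequences of the tropomyosins were not used here, and no seed match was sought in them.

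Of the 23 tropomyosin probes, 21 were detected in every channel (control and mimic RNA on each array), that is, the scanner software found them well above background there, and these 21 are the probes counted below. None was saturated in any channel, and each probe had 1 spot. Over the whole array, 25270 of the 41000 probes were detected on both arrays in at least 1 of the RNAs, which is how probes outside the family were counted. The first array had a median log2 ratio of 0.02 and the swapped array one of -0.01, after quantile normalization of the 4 channels. Of 14 probes for transcripts known from HEK-293 cells (vimentin, keratins, neurofilaments and kidney regulators), 12 were counted, PAX2 being the gene without a counted probe. Of 8 probes for muscle markers, 3 were counted, for DES, MYOD1 and CKM, and the probes of MYOG, MYH11 and MYOCD were not. As most probes of the array were counted, these marker counts cannot by themselves show which cell line was used.

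TPM4 was the lowest of the 4 genes on each array. All 4 of its probes were lower in the mimic RNA on both arrays, and 1 of them passed 2-fold in the array mean. The other 3 genes had no probe past 2-fold in either direction. In all, 1 of the 21 counted tropomyosin probes was called lower, that is at a mean log2 ratio of -1 or below with a fall on both arrays, and 0 were called higher. Among all counted probes, 0.518% were called lower and 0.123% higher by the same rule. Nothing is read from this count, since the family was proposed for its fall. Of the 21 probes, 11 were lower on both arrays, 1 was higher on both and 9 had opposite signs, against 23.2% and 24.2% of all counted probes that were lower on both and higher on both. The 11 were 4 probes of TPM4, 4 of TPM3, 2 of TPM1 and 1 of TPM2. All TPM4 probes are thus among them, and the family was proposed for the fall of TPM4, so nothing is read from this count either. The median over the 21 probes, TPM4 included, was -0.09, and over all counted probes 0.0015.

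**Figure D1:**
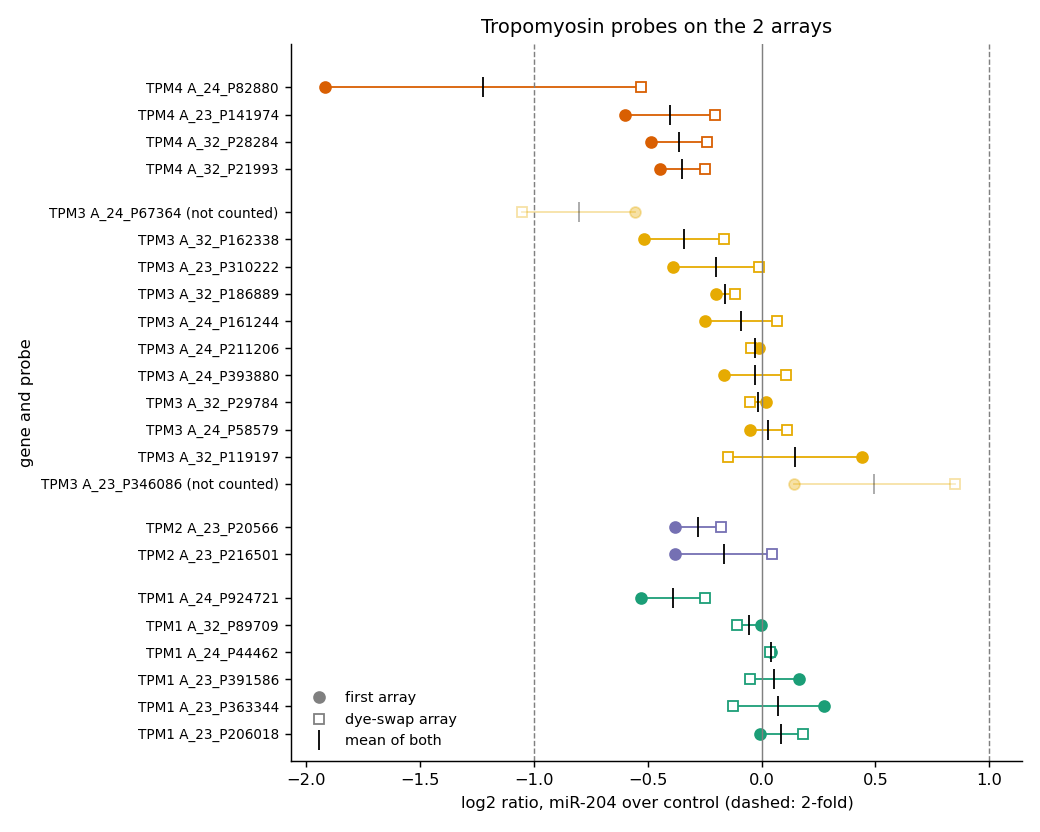
Log2 ratio, miR-204 over control (x axis) for each of the 23 tropomyosin probes (y axis), with a filled circle for the first array, an open square for the dye-swap array and a bar for their mean. The 4 TPM4 probes lie below 0 on both arrays, and A_24_P82880 alone has a mean past the dashed 2-fold line among the 21 counted probes, while the 2 probes that were not counted are drawn pale.

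The probe that passed 2-fold was A_24_P82880, on chromosome 19 of hg18 at 16060863 to 16060922. Its processed signal, the brightness after the scanner software corrected for background and dye, was 2912 for control and 759 for mimic RNA on the first array. On the dye-swap array these signals were 1263 and 882. The mimic signals thus lay below both control signals, and the fall was much smaller on the swapped array. After quantile normalization the first array gave a log2 ratio of -1.92 and the swapped array one of -0.53, with a mean of -1.22 (SD 0.98 over 2 arrays), which is 2.34-fold lower. On the first array alone the fall was 3.78-fold and on the swapped array alone it was 1.44-fold, short of 2-fold. Of the 23159 probes detected in all 4 channels, 10 had a mean ratio at or below it, this probe included. On the first array 0.0993% of these probes were at or below its ratio, and on the swapped array 2.54% were. Its ratio on the first array minus that on the swapped array was -1.39, and a difference as large in either direction was seen for 2.07% of the probes.

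The other 3 TPM4 probes lie 12.2 to 12.3 kb downstream of it, close to one another, and the last 2 named below overlap. They read neighbouring stretches of the same end of the gene and are not independent of one another. A_23_P141974, at 16073086 to 16073145, had signals of 2787 in the control RNA and 1828 in the mimic RNA on the first array, and 1654 and 1439 on the swapped array. A_32_P28284, at 16073197 to 16073256, had 4464 and 3142, and then 2957 and 2508. A_32_P21993, at 16073210 to 16073269, had 1759 and 1288, and then 1186 and 992. On each array the control signal of each probe was above its mimic signal. The log2 ratios on the first array were -0.60, -0.49 and -0.45 for the probes in that order, and on the swapped array -0.20, -0.24 and -0.25. Their means were -0.40, -0.36 and -0.35. The tropomyosin values nearest to the 2-fold threshold were thus -1.22 inside it and -0.40 outside it. Between 5.09% and 7.15% of probes detected in all 4 channels had a mean ratio at or below theirs. The mean over the 3 probes was -0.37, a 1.29-fold fall. The ratio of A_24_P82880 minus this mean was -1.41 in log2 on the first array and -0.30 on the swapped array.

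**Figure D2:**
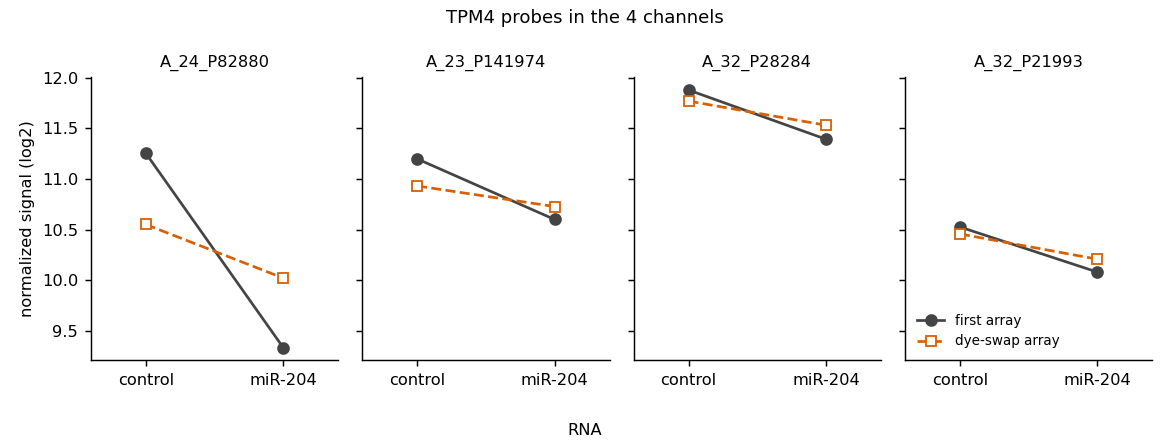
Quantile normalized log2 signal (y axis) of each TPM4 probe in the control and the mimic RNA (x axis), with a solid line for the first array and a dashed line for the dye-swap array. Every line falls from control to miR-204, steepest for A_24_P82880 on the first array, from 11.26 to 9.34, against 10.55 to 10.02 on the swapped array.

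Of 277 gene names with 4 or more counted probes, 4 had each of these probes lower on both arrays, TPM4 included, which is 1.44%. This count was chosen after the values were seen, and 3 of the 4 TPM4 probes lie side by side. The family was proposed for the fall of TPM4, so nothing is read from this share. Averaged over the 4 TPM4 probes, the ratio came to -0.86 (first array) and -0.30 (swapped array), with a mean of -0.58 (SD 0.43 over probes).

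TPM2, or beta tropomyosin, came next in the order of the genes, with a mean over its 2 probes of -0.38 on the first array, -0.07 on the swapped array and -0.22 in all. A_23_P20566, on chromosome 9 of hg18 between 35674492 and 35675064, had signals of 222 in the control RNA and 170 in the mimic RNA on the first array, and 161 and 144 on the swapped array. Its ratios were -0.38 and -0.18. A_23_P216501, at 35672088 to 35672147, had signals of 1768 and 1356, and then 1237 and 1278. Its ratios were -0.38 and 0.05, so that it was lower on 1 array only.

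TPM3 had 9 counted probes of 11, with a mean of -0.12 on the first array, -0.03 on the swapped array and -0.08 in all (SD 0.14 over probes). The 9 include A_32_P29784, which the files place on chromosome 2. It is thus part of the TPM3 mean wherever that mean is compared with other genes. On chromosome 1 of hg18, the lowest was A_32_P162338, between 152411190 and 152412052, which had 2587 in the control RNA and 1788 in the mimic RNA on the first array, and 1685 and 1509 on the swapped array. Its ratios were -0.51 and -0.16, both below 0. The highest was A_32_P119197, at 152394569 to 152394628, with signals of 132 and 179, and then 108 and 97.6. It changed sign between the arrays, at 0.44 and -0.15. Over the 9 probes 4 were lower on both arrays, 0 were higher on both and 5 had opposite signs. The brightest, A_24_P393880 at 152395930 to 152395989, had signals between 7831 and 12565 and a mean ratio of -0.03.

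For 2 TPM3 probes no ratio is read. A_24_P67364, between 152412247 and 152415219, had signals from 6.60 to 20.4 and was detected in no channel. A_23_P346086, at 152397898 to 152397957, had signals from 15.1 to 26.0 and was detected in the mimic RNA of the first array and in the control RNA of the swapped array alone. Another TPM3 probe, A_32_P29784, is placed by the files on chromosome 2 at 231145017 to 231145076, away from the gene on chromosome 1, although the files list TPM3 transcripts for it. It was bright, at 10988 in the control RNA and 10990.3 in the mimic RNA on the first array and 8178 and 7859 on the swapped array, with ratios of 0.02 and -0.05. Near-identical copies of TPM3 can hybridize to the same probes, so the part of each TPM3 signal that comes from the gene itself is uncertain. The arrays held 4 further probes described as a TPM3 pseudogene or as similar to TPM3, of which 2 were counted. The probe of LOC147804 had -0.63 and 0.23, and a probe of LOC402643 was detected in the control RNA and undetected in the mimic RNA on both arrays, so that no fold is given.

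TPM1, or alpha tropomyosin, had the highest array mean of the 4 genes, at -0.01 on the first array, -0.05 on the swapped array and -0.03 in all (SD 0.18 over its 6 probes). On the swapped array TPM3 was higher, at -0.03, and the brightest TPM1 probe taken alone had a mean of 0.06. On chromosome 15 of hg18, 5 of the probes had means between -0.05 and 0.09. The lowest probe, A_24_P924721 at 61127899 to 61127958, had signals of 617 in the control RNA and 421 in the mimic RNA on the first array, and 494 and 422 on the swapped array. Its ratios of -0.53 and -0.25 gave a mean of -0.39, close to those of the downstream TPM4 probes. The transcript that the files name for it differs from those named for the other 5 TPM1 probes. Which further transcripts each probe can read was not compared. The TPM4 probes all carry the same transcript name. A_23_P391586 and A_32_P89709 overlap, at 61151035 to 61151094 and 61151086 to 61151145, and had means of 0.06 and -0.05, although their signals on the first array were 3971 and 306 in the control RNA. Probes that differ in sequence bind with different strength, so levels were not compared between probes or between genes.

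In the order of the genes, neighbours were compared within each array, since both were read on the same array. The first array put TPM4 minus TPM2 at -0.48 and the swapped array at -0.24, with the same sign on both and a mean of -0.36. TPM2 minus TPM3 was -0.26 and -0.04, with a mean of -0.15. TPM3 minus TPM1 was -0.12 and 0.02, so that the order of this last pair turned between the arrays. Over the arrays as a whole, the range of TPM4, from -0.86 to -0.30, overlapped that of TPM2, from -0.38 to -0.07. As there is 1 replicate, no spread between cultures stands behind these differences.

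The probes at the ends of each gene were then compared. The files give the probe positions on hg18, and the order of the 2 ends of a probe gives the strand, which was the one in the RefSeq start-site table for 99.7% of 2444 gene names. In each gene the most upstream counted probe, nearest the 5′ end, had a lower mean ratio than the most downstream one. The difference was -0.88 for TPM4 over 12.3 kb, -0.37 for TPM3 over 17.6 kb, -0.33 for TPM1 over 23.2 kb and -0.11 for TPM2 over 2.92 kb, as genomic distances with introns included. Positions longer than the 60 bases of a probe are those of probes whose parts are placed apart on the genome. The most downstream TPM3 probe, A_24_P58579, has a position of 31 bases, shorter than a probe. On the first array these differences were -1.47, -0.46, -0.53 and -0.003, and on the swapped array -0.28, -0.28, -0.14 and -0.22, in the same order.

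**Figure D3:**
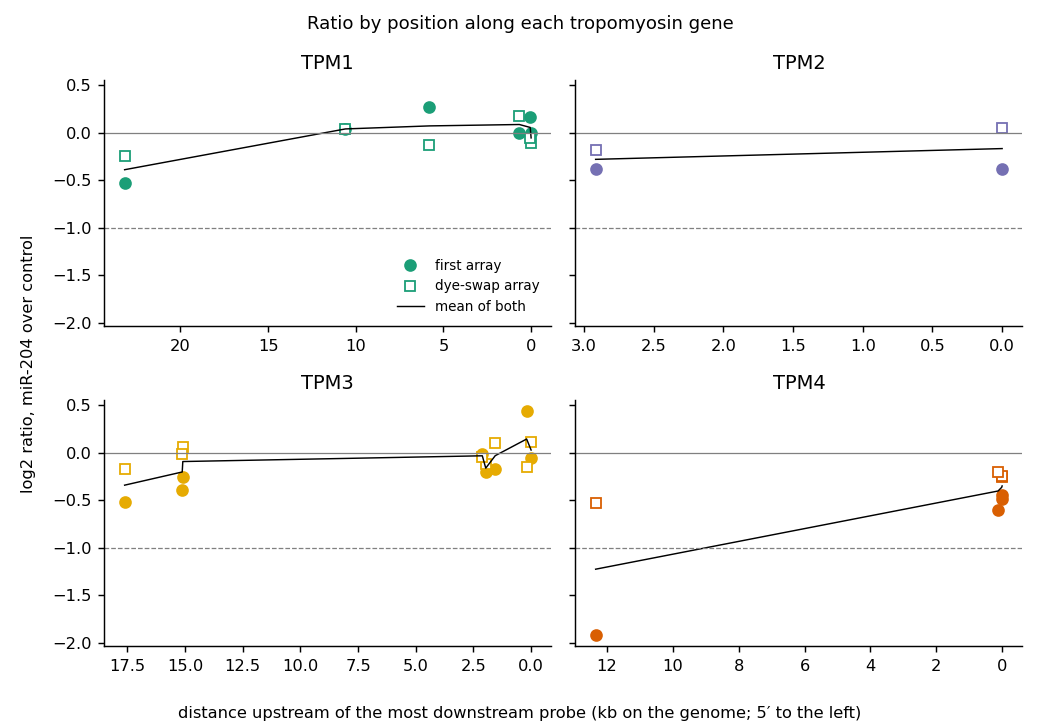
Log2 ratio, miR-204 over control (y axis) of the counted probes of each gene against their distance upstream of the most downstream probe in kb (x axis, 5′ to the left), with filled circles for the first array, open squares for the dye-swap array and a line through the means. The leftmost probe of each gene lies lower than the rightmost in the array mean, with a difference of -0.88 for TPM4, and the TPM3 probe placed on another chromosome is left out.

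The same order was found over the whole array. Of 3735 gene names with 2 or more counted probes on 1 chromosome and strand, at least 1000 bases apart, the most upstream probe was lower than the most downstream one in 73.4%, with a median difference of -0.14. The 4 tropomyosins are therefore near the background in this respect, and the direction is not particular to them. On the first array alone the share was 73.3% with a median difference of -0.26, and on the swapped array alone 54.9% with -0.04. The TPM4 difference contains A_24_P82880, the lowest probe of the gene for whose fall the family was proposed. Its place among the gene names is therefore a description and no test. At or below the TPM4 difference lay 2.30% of the gene names in the array mean, 1.45% on the first array and 23.8% on the swapped array. TPM1 lay at 25.8% in the mean and TPM2 at 55.2%, and TPM3 was not ranked because of its probe on chromosome 2. The part that position played in the ratio of A_24_P82880 was not tested. This comparison was chosen after the values were seen.

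**Figure D4:**
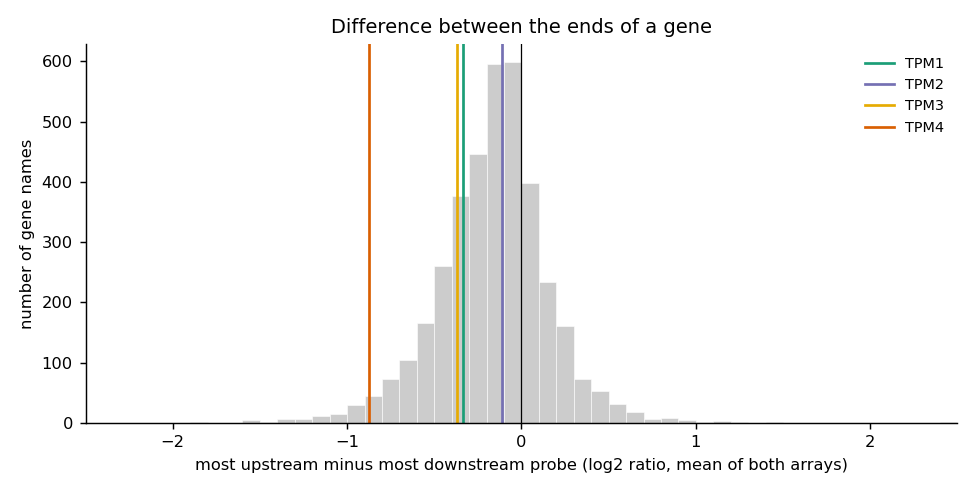
Number of gene names (y axis) by the difference in log2 ratio between their most upstream and most downstream counted probe, mean of both arrays (x axis), as grey bars over 3735 gene names, with values past the ends of the axis placed in the last bars, and a coloured line for each tropomyosin gene. Most of the bars lie left of 0, and the TPM4 line at -0.88 lies further left than those of TPM3, TPM1 and TPM2.

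Among listed proteins that work with tropomyosin on the actin filament, no counted probe passed 2-fold in the array mean. The list of 40 such genes had 65 probes on the array. Only 30 of the genes had a counted probe, so the others were not read. Of the 50 counted probes, 0 were called lower and 0 higher. Their median log2 ratio was -0.004. In all, 12 of the 50 were lower on both arrays and 11 were higher on both, near the shares over all counted probes.

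By group, actins, the filament itself, had 7 of 11 counted probes higher on both arrays and 0 lower on both, with a median of 0.16, where 24.2% of all counted probes were higher on both. These 7 probes are not separate genes, since 4 of them are for ACTB. ACTA1, skeletal muscle actin, was the highest gene of the whole list, with ratios of 1.01 and 0.77 and a mean of 0.89. The 4 probes of ACTB, the cytoplasmic beta actin, averaged 0.36 and 0.18, with a mean of 0.27. The tropomodulins and leiomodins, which bind tropomyosin at the pointed end of the filament, had 3 of 4 counted probes lower on both arrays and 0 higher, with a median of -0.22, where 23.2% of all counted probes were lower on both. TMOD1 had -0.57 and -0.15. For TMOD3, the ubiquitous tropomodulin, the first array gave a mean over 2 probes of 0.07 and the swapped array one of -0.52.

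Among the remaining groups, non-muscle myosin II, the motor that pulls on these filaments, held the lowest gene of the list. MYH10, the heavy chain of non-muscle myosin IIB, had a mean of -0.42 over 3 probes, at -0.73 on the first array and -0.11 on the swapped array, and 1 of its probes was lower on both. The median of the group was -0.05 over 12 counted probes. Caldesmon and the calponins, which bind actin and tropomyosin in smooth muscle and other cells, had a median of -0.08 over 7 counted probes. The bundling and severing proteins, among them alpha-actinins and cofilins, had -0.12 over 12. The troponins, partners of tropomyosin in striated muscle, had 4 counted probes of 11, with a median of 0.01 and no probe of the same sign on both arrays.

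**Figure D5:**
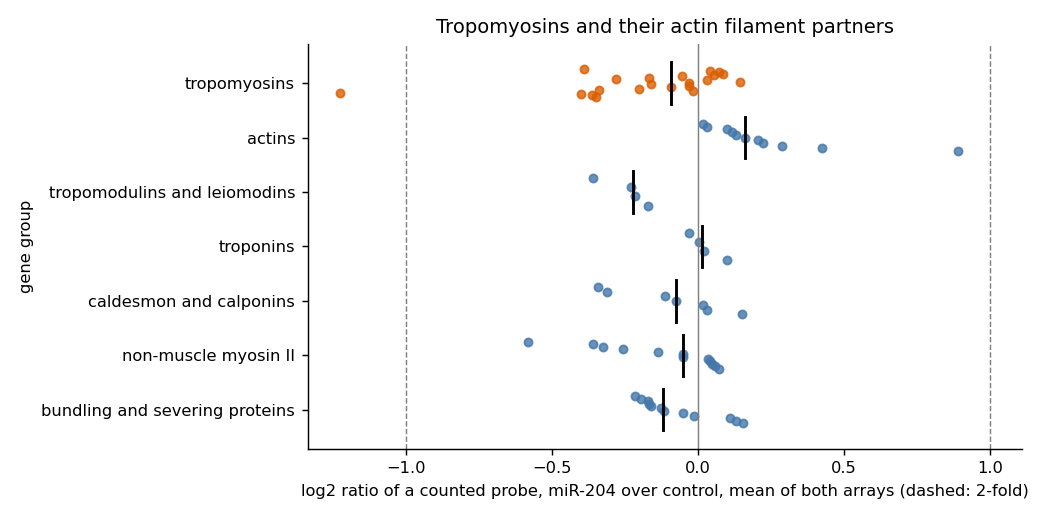
Mean log2 ratio of miR-204 over control (x axis) of each counted probe, by gene group (y axis), with a black bar for the median of a group. The 50 partner probes lie between -0.58, a MYH10 probe, and 0.89, the ACTA1 probe, and all 11 actin probes lie above 0 in the mean, while A_24_P82880 of TPM4 at -1.22 is the one point past a dashed 2-fold line.

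The gene names whose pair of ratios lay nearest to that of A_24_P82880, by Euclidean distance over the 2 arrays, among probes detected in all 4 channels, were MALAT1, FBXO38 and CGNL1. The MALAT1 probe, for a nuclear noncoding RNA, had -2.06 on the first array and -0.55 on the swapped array, at a distance of 0.14 in log2. The FBXO38 probe, for an F-box protein, had -2.13 and -0.59, at 0.22, and the CGNL1 probe, for a protein of cell junctions, had -2.12 and -0.66, at 0.24. They were picked for this likeness, so what their ratios share with it is no finding. The other counted probe of FBXO38 had a mean of 0.16 and that of CGNL1 had -0.07, so that in these genes, too, probes of 1 gene name differed. The other 3 MALAT1 probes had means between -1.30 and -0.39.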

How the data were processed

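The values were intensities from 2 Agilent 2-colour arrays. Per the file headers, the authors scanned them with Feature Extraction 9.5.3.1, which subtracted background and normalized the dyes. The study's methods name quantile normalization in MATLAB for the later steps. From the deposited processed signal intensity, the log2 signals of the spots of a probe were averaged, quantile normalized over the 4 channels with limma 3.58.1 in R 4.3.3, and turned to miR-204 over control. Probes with outlier flags (128) were left out. The deposited log10 ratio column and the deposited series table, in log2, served as alternatives, and the deposited columns of p-values were not used as results. Each array held 43376 non-control spots; between 25284 and 29024 were well above background per channel. The number of arrays limits the precision. Probes were called at 2-fold in the mean with the same sign on both arrays. Named were all member probes, the 3 genes most like A_24_P82880, and the partner genes called or lowest and highest, with examples per group added after their values were seen. The members and lists were chosen with earlier results of these data known. The calculation was tested on simulated data.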

Additional observations from a re-analysis of the deposited data

How the results depend on the processing

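The call of 1 lower and 0 higher tropomyosin probes was also found in 7 other ways of making the ratios (no further normalization, quantile normalization of the ratios, normexp with loess, loess without background correction, the deposited log ratios, the series table, and leaving out outlier-flagged spots alone), without a filter on signal, with signal required in all 4 channels, and at 1.5-fold. The count of lower probes was 0 where 2-fold was asked of each array, 0 where 2-fold was joined with the methods' t-test unadjusted, and 0 where it was joined with that test after Benjamini-Hochberg adjustment. That test runs over channels of arrays that are 1 replicate. In this t-test A_24_P82880 had an unadjusted p of 0.13 and an adjusted p of 0.89. When no fold was asked, 2 tropomyosin probes had an unadjusted p below 0.05 in it. The share over all probes is not given, so nothing is read from these 2. Without each array in turn the count of lower probes ranged from 0 to 1, being 0 without the first array. The log2 ratio of A_24_P82880 ranged from -1.92 without the swapped array to -0.53 without the first array, and from -1.23 to -1.18 over the 7 other ways. The other 3 TPM4 probes ranged from -0.60 to -0.45 without the swapped array and from -0.25 to -0.20 without the first array. Over the 7 other ways they ranged from -0.41 to -0.33. Of 23 probes, 3 changed sign in at least 1 of these ways, none with a mean beyond 0.04 from 0. Without its lowest probe, which was chosen after seeing the data, TPM4 stood at -0.37. With the brightest probe of a gene in place of the mean, TPM4 stood at -0.36, TPM2 at -0.17, TPM3 at -0.03 and TPM1, with its sign turned, at 0.06. Also chosen after seeing the data, the share of gene names with a lower upstream probe was 70.3% to 74.1% over the 7 ways and 54.9% without the first array, and all 4 tropomyosins kept that direction in each of these settings. No paired analysis was possible because there was 1 replicate, made up of both arrays.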
